A study of Homo sapiens with 4 samples.

Results

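The genes described here form a module of 42 genes that act in the G2 phase and in mitosis, listed by symbol for their known roles. The list was drawn up with earlier results of these data known. A gene was measured where a probe set of the deposited table was annotated with its symbol and no other. Where several were, the one with the highest mean value stood for the gene. Of the 42 genes, 41 were measured in this way and all 41 lay above the dim limit, a log2 value of 4.14, among 14970 genes tested in all. PTTG1, the securin that holds separase inactive until anaphase, was represented only by 2 probe sets that also name other genes, so it has no value here. Expression was measured on 4 one-colour arrays, 2 of MTAC-P and 2 of PC9. MTAC-P is described in the labels as a resistant lung cancer line that arose under mild exposure to a tyrosine kinase inhibitor, with neither the inhibitor, its dose nor the parent line named. PC9 is an established human lung adenocarcinoma line that carries an EGFR mutation and for which the labels give no drug. Each line is represented by duplicates that the labels do not tie to separate cultures. All p-values therefore measure the spread between these arrays, which may be technical. Both lines were grown in DMEM with serum, and whether the inhibitor was in the medium at harvest is not given in the labels.

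Entry into mitosis is driven by cyclin-dependent kinase 1 bound to A- and B-type cyclins. The Aurora and Polo-like kinases then organise the spindle, and the spindle checkpoint holds back the anaphase-promoting complex until each kinetochore is attached to microtubules. Many of these genes are transcribed together late in the cell cycle: in resting cells the DREAM complex represses them through a short promoter element, the cell cycle genes homology region (CHR), and in G2 the same element is used by MYBL2 and FOXM1 with the MuvB complex. Because their RNA is low outside G2 and mitosis, their level in a bulk sample is widely used as a readout of the fraction of dividing cells.

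Most genes of the module had lower values in MTAC-P, and some of the best known did not. Array medians over the 41 genes were 9.58 and 9.21 in MTAC-P, against 9.78 and 10.12 in PC9 (log2 values). The mean was lower in MTAC-P for 33 of the 41 genes and higher for 8, with a median log2 difference (MTAC-P minus PC9) of -0.48. Over all tested genes 46.2% had a lower mean in MTAC-P and the median difference was 0.031. The differences ran from -1.24 for CDK1 to 0.35 for CDC20, so members of the same program were spread over both sides of zero. In these bulk RNA samples, fewer cells in G2 and mitosis and less RNA per cell cannot be told apart.

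No member passed limma's test at an adjusted p of 0.05 (0 of 41, smallest adjusted p = 0.112), a rule that 0.0200% of all tested genes met. At an unadjusted limma p under 0.05, 18 members were lower in MTAC-P and 0 were higher, against 11.1% and 7.76% of all tested genes. Both MTAC-P arrays lay below both PC9 arrays for 24 members and above them for 4, where 24.9% and 28.3% of all tested genes did so. A mean lower by at least 0.5 on the log2 scale was found for 19 members, against 10.8% of all tested genes, and a mean lower by at least 1 for 3 members, against 1.62%. The unmoderated test also called 0 members, and limma with a variance trend called 1, CDK1. The count depended strongly on the model fitted, as set out in the closing part on processing. With duplicates only, an exact permutation test of a single gene cannot give a 2-sided p below 0.333.

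**Figure D1:**
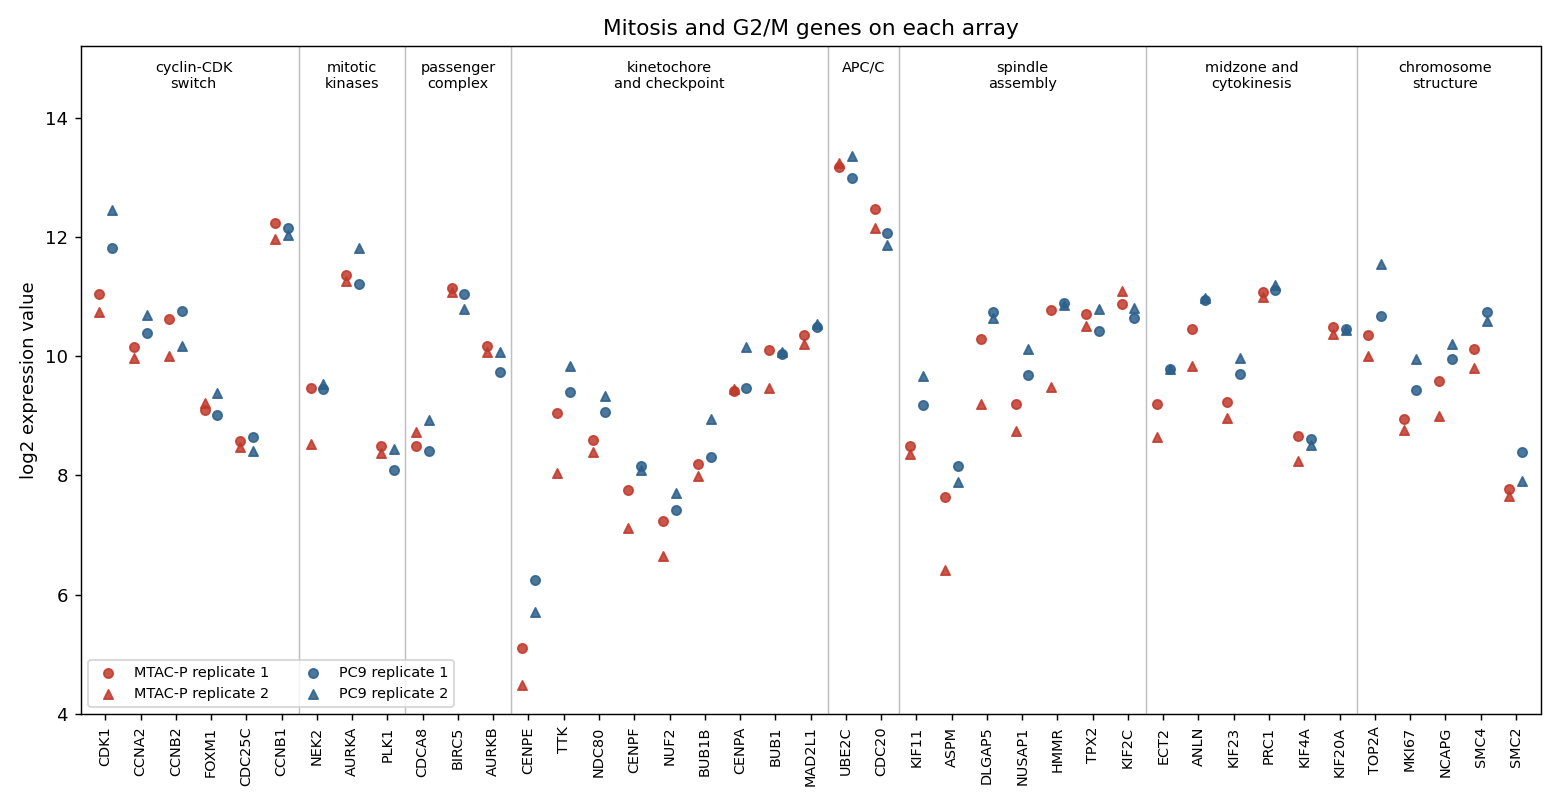
Log2 expression value (vertical axis) of the 41 measured mitosis and G2/M genes (horizontal axis, grouped by role) on each array. Red symbols are MTAC-P and blue symbols PC9, circles are replicate 1 and triangles replicate 2. The 5 genes of chromosome structure lie lower on both MTAC-P arrays, and UBE2C and CDC20, which act with the anaphase-promoting complex (APC/C), do not.

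The duplicates differed in this module in opposite directions in the lines. MTAC-P replicate 2 was below MTAC-P replicate 1 for 36 of 41 members, by a median of 0.26, and PC9 replicate 2 was below PC9 replicate 1 for 14 of 41, with a median difference (replicate 1 minus replicate 2) of -0.17. Over all tested genes the same medians were -0.021 in MTAC-P and 0.0026 in PC9. Over 87 further mitosis genes, described below, they had the directions seen in the members, at 0.11 in MTAC-P and -0.065 in PC9. The line difference therefore depended on which arrays were compared. The median difference of the members was -0.13 between MTAC-P replicate 1 and PC9 replicate 1, -0.33 between MTAC-P replicate 1 and PC9 replicate 2, -0.66 between MTAC-P replicate 2 and PC9 replicate 1, and -0.72 between MTAC-P replicate 2 and PC9 replicate 2. Without MTAC-P replicate 2 the median over the members was -0.32 and 29 were lower, and without PC9 replicate 1 the median was -0.62 and 34 were lower.

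Promoter sequences of the members are shown because the module is known for a shared promoter element. RefSeq promoter windows of GRCh38.p14, from 250 bases before to 50 bases after an annotated start of transcription, were found for 36 of the 42 genes, in 45 windows. The table had no entry for UBE2C, TPX2, FOXM1, TTK, AURKA and BIRC5. The windows were searched on both strands for 2 forms of the CHR letters, TTTGAA and TTCGAA, and for the CCAAT box that the factor NF-Y binds. The CHR letters were present in 28 of the 36 genes (77.8%), against 19.5% of all 27305 genes of the table, and in 68.9% of the members' windows, against 16.4% of all 35116 windows. The CCAAT box was present in 27 of the 36 genes (75%), against 39.7% of all genes, and in 68.9% of the members' windows, against 34.6% of all windows. Both elements together were found in 58.3% of the member genes, against 7.85% of all genes. CHR letters also occurred in 65.3% of 75 further mitosis genes, but in 6.25% of 48 genes of the G1/S transition, among which the CCAAT box was present in 60.4%. These shares describe letters in a window and were not tested.

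The 6 windows printed here hold CHR letters and set 3 genes with both MTAC-P arrays below both PC9 arrays, MKI67, TOP2A and CDK1, beside 3 for which this was not so, CCNB2, PLK1 and CDC20. Capitals mark the CHR letters and the CCAAT box in either orientation, and in MKI67 the 2 elements share a base. For CDK1, which has 2 annotated starts, the window with more CHR matches is shown. The windows are chr10:128126374-128126673 on the minus strand for MKI67, chr17:40417847-40418146 on the minus strand for TOP2A, chr10:60778228-60778527 on the plus strand for CDK1, chr15:59104896-59105195 on the plus strand for CCNB2, chr16:23678639-23678938 on the plus strand for PLK1 and chr1:43358731-43359030 on the plus strand for CDC20.
MKI67: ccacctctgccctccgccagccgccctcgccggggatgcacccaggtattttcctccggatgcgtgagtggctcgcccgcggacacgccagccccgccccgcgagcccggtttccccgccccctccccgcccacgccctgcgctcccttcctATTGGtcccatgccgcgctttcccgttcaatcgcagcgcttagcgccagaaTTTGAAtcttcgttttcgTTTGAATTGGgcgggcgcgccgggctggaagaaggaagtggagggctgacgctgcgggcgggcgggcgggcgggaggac
TOP2A: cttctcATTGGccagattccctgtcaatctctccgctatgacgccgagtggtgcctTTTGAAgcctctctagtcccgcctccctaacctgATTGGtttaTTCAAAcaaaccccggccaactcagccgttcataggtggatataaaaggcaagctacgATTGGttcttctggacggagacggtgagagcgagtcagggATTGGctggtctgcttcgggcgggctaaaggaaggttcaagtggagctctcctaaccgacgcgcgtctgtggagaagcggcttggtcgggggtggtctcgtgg
CDK1: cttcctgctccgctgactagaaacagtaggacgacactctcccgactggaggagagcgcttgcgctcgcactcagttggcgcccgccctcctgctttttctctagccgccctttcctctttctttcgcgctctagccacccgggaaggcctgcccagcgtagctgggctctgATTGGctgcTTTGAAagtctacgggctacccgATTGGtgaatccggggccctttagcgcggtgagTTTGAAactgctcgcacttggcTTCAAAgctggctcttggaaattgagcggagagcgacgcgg
CCNB2: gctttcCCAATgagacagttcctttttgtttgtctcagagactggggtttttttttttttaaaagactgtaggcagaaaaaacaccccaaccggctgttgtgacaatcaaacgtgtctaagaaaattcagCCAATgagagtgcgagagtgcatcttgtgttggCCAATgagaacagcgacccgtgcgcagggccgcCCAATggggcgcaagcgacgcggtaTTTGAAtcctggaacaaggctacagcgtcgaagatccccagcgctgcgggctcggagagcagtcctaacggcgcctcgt
PLK1: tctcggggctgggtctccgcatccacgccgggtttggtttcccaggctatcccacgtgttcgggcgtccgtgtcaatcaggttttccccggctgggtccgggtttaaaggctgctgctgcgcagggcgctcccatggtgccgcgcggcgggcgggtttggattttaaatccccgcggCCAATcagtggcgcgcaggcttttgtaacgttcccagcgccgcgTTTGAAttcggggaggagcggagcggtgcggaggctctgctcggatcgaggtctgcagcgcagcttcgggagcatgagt
CDC20: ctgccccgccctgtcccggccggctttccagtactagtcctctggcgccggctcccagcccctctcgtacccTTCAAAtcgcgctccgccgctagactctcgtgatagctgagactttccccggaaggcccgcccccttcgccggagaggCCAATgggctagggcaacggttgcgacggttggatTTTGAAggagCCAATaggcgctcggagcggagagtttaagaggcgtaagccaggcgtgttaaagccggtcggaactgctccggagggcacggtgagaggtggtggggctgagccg
Positions are counted from the start of transcription and negative before it. In the MKI67 window the CHR letters begin at -47 and -29, and in CCNB2 and PLK1 they begin at -29, with the nearest CCAAT box at -54 in CCNB2 and at -73 in PLK1. CDK1 has CHR letters at -69, -13 and 10. They lie at -178 and -65 in CDC20 and at -194 and -151 in TOP2A. MKI67, with a lower mean in MTAC-P, and PLK1, whose arrays overlapped between the lines, both hold CHR letters at -29, and MKI67 also at -47. The relation of position to the line difference was not tested.

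**Figure D2:**
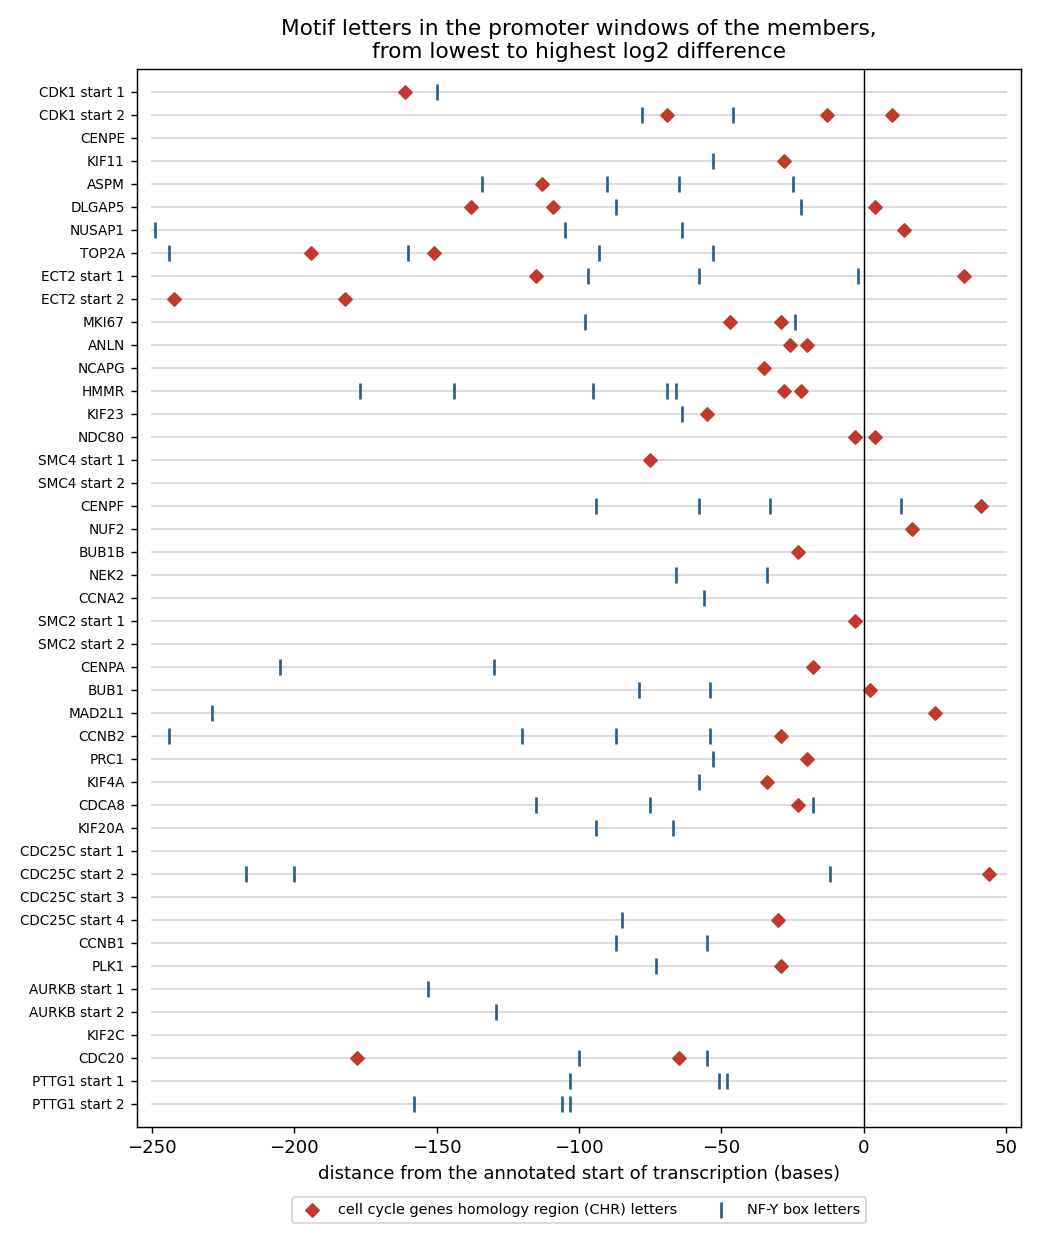
Positions of the CHR letters (red diamonds) and of the CCAAT box bound by NF-Y (blue bars) in the 45 promoter windows of the members, as the distance in bases from the annotated start (horizontal axis). Genes run from the lowest log2 difference at the top to the highest, with PTTG1, which has no value, at the bottom. Of the 43 CHR matches, 29 lie within 50 bases of the start, and of the 68 CCAAT matches, 43 lie between -120 and -40.

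Among members with a window and a value, the 28 with CHR letters had a median log2 difference of -0.69 and 25 were lower in MTAC-P, whereas the 7 without had a median of -0.019 and 4 were lower. Over all tested genes with a window, the 1983 with CHR letters had a median of -0.0093 and the 10053 without had 0.037. The 7 members without the letters were CENPE, NEK2, CCNA2, KIF20A, CCNB1, AURKB and KIF2C, with differences from -1.18 for CENPE to 0.26 for KIF2C. Only TTTGAA and TTCGAA were searched for, so these genes may hold another form of the element. Members with a CCAAT box had a median of -0.43 and those without one a median of -0.70. Members without a window are in none of these groups: TTK differed by -1.08, and UBE2C, TPX2, FOXM1, AURKA and BIRC5 by -0.20 to 0.19. Of the 7 without CHR letters, NEK2, CCNA2, KIF20A, CCNB1 and AURKB span up to 20 kb. All members of that length had a median of -0.041. These contrasts were not tested.

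The cyclin and CDK genes split between the kinase and its B-type cyclins. CDK1, the kinase that triggers mitosis, had log2 values of 11.05 and 10.73 in MTAC-P, against 11.81 and 12.45 in PC9. Both MTAC-P arrays were below both PC9 arrays, and its mean was 2.36-fold lower in MTAC-P, a log2 difference of -1.24 (SE 0.25, 95% interval -1.84 to -0.64, limma adjusted p = 0.112). Another CDK1 probe set differed by -1.14, and one with values of 4.21 to 4.65, near the dim limit, by 0.34. CCNA2, the cyclin that acts from S phase to early mitosis, had values of 10.15 and 9.97 in MTAC-P, against 10.39 and 10.69 in PC9. These did not overlap either, and CCNA2 differed by -0.48 (SE 0.18), its other probe set by -0.44. CCNB1, the main mitotic cyclin partner of CDK1, had values of 12.23 and 11.97 in MTAC-P, against 12.14 and 12.04 in PC9. The arrays of the lines overlapped and the difference was 0.014, with a 95% interval of -0.39 to 0.42. CCNB2, another B-type cyclin, had values of 10.62 and 10.00 in MTAC-P, against 10.75 and 10.18 in PC9, so that in each line the duplicates lay farther apart than the line means. CCNB2 differed by -0.15, with a 95% interval of -0.83 to 0.52. FOXM1, the transcription factor that activates G2 genes, had values of 9.09 and 9.21 in MTAC-P, against 9.01 and 9.37 in PC9, which overlapped, with an interval of -0.49 to 0.40. CDC25C, the phosphatase that switches CDK1 on, differed by 0.00014 (95% interval -0.40 to 0.40).

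The 3 mitotic kinases AURKA, PLK1 and NEK2 all had overlapping arrays. AURKA, the Aurora kinase of the spindle poles, had values of 11.36 and 11.26 in MTAC-P, against 11.20 and 11.80 in PC9. PLK1, the Polo-like kinase of centrosome maturation and cytokinesis, had values of 8.50 and 8.37 in MTAC-P, against 8.09 and 8.44 in PC9. The arrays of the lines overlapped for both, with differences of -0.20 (95% interval -0.74 to 0.35) for AURKA and 0.17 (95% interval -0.27 to 0.61) for PLK1, and all 3 probe sets of PLK1 were higher in MTAC-P, by up to 0.41. NEK2, a kinase of centrosome separation, differed by -0.49 but only by -0.020 without MTAC-P replicate 2, whose value was 8.52 against 9.47 on the other MTAC-P array.

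The chromosomal passenger complex, which corrects faulty attachments and later marks the midzone, had a lower mean in MTAC-P for 1 of 3 genes, with a median difference of 0.19. Its kinase AURKB had values of 10.16 and 10.07 in MTAC-P, against 9.73 and 10.07 in PC9, with both MTAC-P arrays above both PC9 arrays, though the nearest 2 were equal to the decimals given. Its subunit BIRC5, survivin, had values of 11.15 and 11.08 in MTAC-P, against 11.05 and 10.79 in PC9 and likewise did not overlap. The differences were 0.22 (SE 0.18, limma adjusted p = 0.540) for AURKB and 0.19 (SE 0.17, limma adjusted p = 0.564) for BIRC5. AURKB differed by 0.052 without PC9 replicate 1, and BIRC5 by 0.064 without PC9 replicate 2. All 11 probe sets of BIRC5 above the dim limit were higher in MTAC-P, by 0.11 to 0.62. CDCA8, the borealin subunit, differed by -0.06 on its brightest probe set and by 0.32 on the other.

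All 9 kinetochore and checkpoint genes had lower means in MTAC-P, with a median of -0.61. For 8 of them both MTAC-P arrays lay below both PC9 arrays, as they did for 24.9% of all tested genes. CENPE, the kinetochore motor that aligns chromosomes, had values of 5.11 and 4.48 in MTAC-P, against 6.25 and 5.70 in PC9. Its mean was 2.27-fold lower in MTAC-P (-1.18, SE 0.28, limma adjusted p = 0.127), and MTAC-P replicate 2 was close to the dim limit. TTK, the Mps1 kinase that starts the checkpoint signal, had values of 9.04 and 8.04 in MTAC-P, against 9.39 and 9.83 in PC9. The arrays did not overlap, but MTAC-P replicate 2 stood well below the rest, and the difference of -1.08 was -0.58 without it. NDC80 and NUF2, subunits of the complex that grips microtubules, had closer duplicates than TTK. NDC80 had values of 8.59 and 8.40 in MTAC-P, against 9.05 and 9.33 in PC9, and NUF2 had values of 7.23 and 6.65 in MTAC-P, against 7.41 and 7.70 in PC9. NDC80 differed by -0.70 (SE 0.18) and NUF2 by -0.61 (SE 0.24, or -0.32 without MTAC-P replicate 2), with non-overlapping arrays. CENPF, a large protein of the outer kinetochore, had values of 7.75 and 7.11 in MTAC-P, against 8.16 and 8.08 in PC9, a difference of -0.69, or -0.37 without MTAC-P replicate 2. BUB1B, the checkpoint protein BubR1 that inhibits CDC20, had values of 8.19 and 7.99 in MTAC-P, against 8.31 and 8.94 in PC9. One PC9 array was close to the MTAC-P arrays, and BUB1B differed by -0.54, or by -0.22 without PC9 replicate 2. The remaining differences were smaller, at -0.38 for the centromeric histone CENPA, -0.27 for the checkpoint kinase BUB1 and -0.24 for MAD2L1, the checkpoint protein that binds CDC20. The difference of CENPA was -0.036 without PC9 replicate 2, and without MTAC-P replicate 2 that of BUB1 turned to 0.052 and that of MAD2L1 was -0.16. The least bright probe set of CENPA differed by 0.050.

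The 2 measured genes that act with the anaphase-promoting complex had no lower mean in MTAC-P. CDC20, its mitotic activator, had values of 12.46 and 12.14 in MTAC-P, against 12.06 and 11.86 in PC9. The MTAC-P arrays lay just above the PC9 arrays, with a difference of 0.35 (SE 0.18, 95% interval -0.096 to 0.79, limma adjusted p = 0.352), and a second probe set above the dim limit differed by 0.58. Without MTAC-P replicate 1 the difference of CDC20 was 0.19. UBE2C, the ubiquitin-conjugating enzyme of the complex, had overlapping arrays and differed by 0.024 (95% interval -0.42 to 0.47). Its other 3 probe sets ran from -0.13 to -0.07.

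Of 7 spindle assembly genes, 6 had lower means in MTAC-P, and the median difference was -0.94. KIF11, the Eg5 motor that pushes the spindle poles apart, had values of 8.49 and 8.36 in MTAC-P, against 9.19 and 9.66 in PC9. The duplicates of MTAC-P were close to each other and below both PC9 arrays, and the mean was 2.00-fold lower (-0.998, SE 0.20, limma adjusted p = 0.112). NUSAP1, a protein that bundles spindle microtubules, had values of 9.19 and 8.74 in MTAC-P, against 9.69 and 10.12 in PC9. It differed by -0.94 (SE 0.23, limma adjusted p = 0.133), and its 3 probe sets by -0.997 to -0.907. ASPM, DLGAP5 and HMMR, which act at spindle poles and along spindle microtubules, shared another pattern. ASPM had values of 7.63 and 6.42 in MTAC-P, against 8.16 and 7.88 in PC9. DLGAP5 had values of 10.29 and 9.20 in MTAC-P, against 10.74 and 10.64 in PC9, and HMMR had values of 10.77 and 9.49 in MTAC-P, against 10.90 and 10.86 in PC9. In all 3, MTAC-P replicate 1 lay within 0.5 of the lower PC9 array and MTAC-P replicate 2 far below it. Their differences of -0.99, -0.95 and -0.75 were -0.39, -0.40 and -0.11 without MTAC-P replicate 2. TPX2, the activator of Aurora A, differed by -0.0093 (95% interval -0.47 to 0.45) with overlapping arrays. KIF2C, a kinesin that takes microtubules apart, had both MTAC-P arrays above both PC9 arrays and differed by 0.26, its other probe set by 0.38. Without MTAC-P replicate 2 its difference was 0.15.

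Among 6 genes of the spindle midzone and cytokinesis, all had lower means in MTAC-P, 3 of them by at least 0.5. ECT2, the exchange factor that activates RhoA at the cleavage furrow, had values of 9.20 and 8.64 in MTAC-P, against 9.78 and 9.78 in PC9. ANLN, the furrow scaffold anillin, had values of 10.46 and 9.84 in MTAC-P, against 10.93 and 10.98 in PC9. KIF23, the kinesin of the centralspindlin complex, had values of 9.23 and 8.96 in MTAC-P, against 9.71 and 9.96 in PC9. None of the 3 overlapped between the lines. The differences were -0.86 (SE 0.22, limma adjusted p = 0.135) for ECT2, -0.81 (SE 0.23, limma adjusted p = 0.154) for ANLN and -0.74 (SE 0.18, limma adjusted p = 0.133) for KIF23. That of ANLN was -0.50 without MTAC-P replicate 2. The microtubule bundler PRC1, also without overlap, differed by -0.12 (-0.080 without PC9 replicate 2), and its other probe sets ran from -0.063 to 0.20. The chromokinesin KIF4A, which overlapped, differed by -0.11 on its brightest probe set and by 0.29 on the other. KIF20A, which brings the passenger complex to the midzone, overlapped too and differed by -0.019 (95% interval -0.39 to 0.35).

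All 5 genes of chromosome structure had both MTAC-P arrays below both PC9 arrays, against 24.9% of all tested genes. Their median difference was -0.79. MKI67, which encodes the proliferation marker Ki-67 of the chromosome surface, had values of 8.95 and 8.76 in MTAC-P, against 9.43 and 9.95 in PC9. Its mean was 1.79-fold lower in MTAC-P (-0.84, SE 0.22, limma adjusted p = 0.137), and all 6 probe sets were lower, with differences of -0.96 to -0.39. TOP2A, the topoisomerase that untangles sister chromatids, had values of 10.36 and 10.01 in MTAC-P, against 10.67 and 11.55 in PC9. PC9 replicate 2 was the highest array, and the difference of -0.93 was -0.49 without it. SMC4, an ATPase subunit of condensin, had values of 10.13 and 9.80 in MTAC-P, against 10.74 and 10.58 in PC9. NCAPG, a regulatory subunit of condensin I, had values of 9.58 and 9.00 in MTAC-P, against 9.95 and 10.20 in PC9. SMC4 differed by -0.70 (SE 0.18, limma adjusted p = 0.137) and NCAPG by -0.79 (SE 0.23, limma adjusted p = 0.163), or by -0.50 without MTAC-P replicate 2. The partner ATPase SMC2 differed by -0.44 on its brightest probe set, and its 7 probe sets ran from -1.09 to -0.44. Without PC9 replicate 1 its difference was -0.19.

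**Figure D3:**
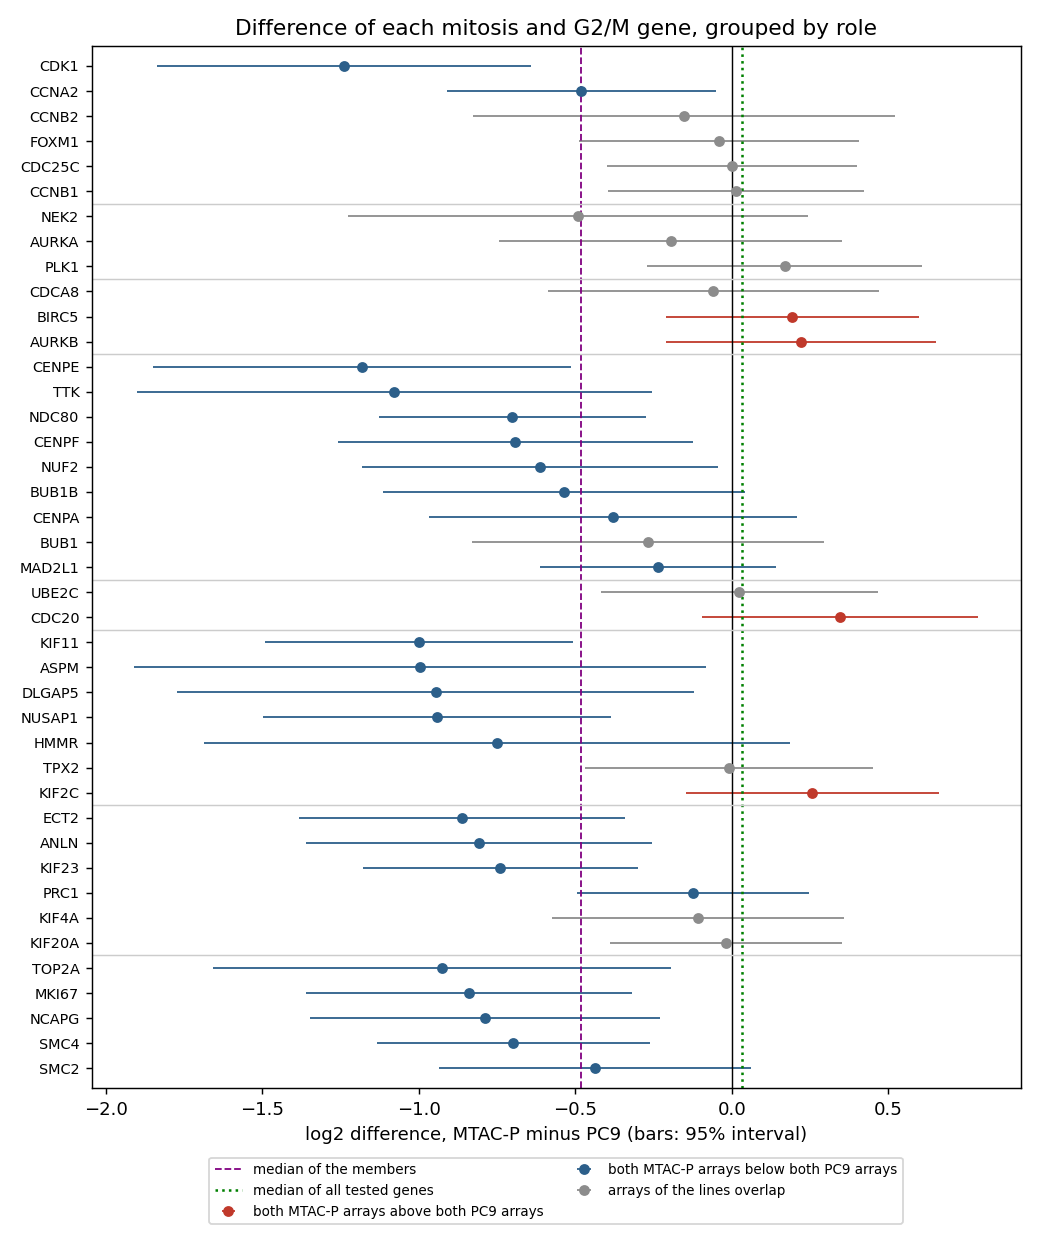
Log2 difference, MTAC-P minus PC9, of each member with its 95% interval (horizontal axis), grouped by role in the order of the text (vertical axis). Blue points have both MTAC-P arrays below both PC9 arrays (24 genes), red points have them above (4 genes) and grey points overlap (13 genes). The dashed line is the median of the members, -0.48, and the dotted line that of all tested genes, 0.031.

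Agreement between probe sets of one gene was checked because each gene is represented by its brightest one. Of the 41 members, 29 had at least 2 probe sets above the dim limit, and in 21 of these all had the same sign. The other 8 were CDK1, CDC25C, FOXM1, CDCA8, CENPA, UBE2C, KIF4A and PRC1. With all probe sets of each gene averaged, 32 members were lower in MTAC-P and the median was -0.46.

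The members with higher means in MTAC-P were mostly short genes. CDC20, AURKB, BIRC5 and PLK1 span 4.22, 5.84, 11.4 and 11.5 kb on the chromosome, whereas CENPE spans 92.5 kb, ECT2 78.5 kb and KIF11 62.3 kb. Of 15 members of up to 20 kb, 9 were lower in MTAC-P, with a median of -0.041. Of 15 members over 20 and up to 50 kb, 14 were lower, with a median of -0.74, and of 11 longer ones 10 were lower, with a median of -0.69. Single genes went against this: CDK1, at 16.5 kb, differed by -1.24, while KIF4A, the longest member at 131 kb, differed by -0.11, TPX2, at 62.5 kb, by -0.0093 and CDC25C, at 53.1 kb, by 0.00014. Over all tested genes the medians in the same 3 classes were 0.097, 0.020 and -0.073. Spearman's rho between the difference and the gene length was -0.55 over the 41 members, -0.45 over 87 further mitosis genes, -0.18 over 54 G1/S genes and -0.23 over 14950 tested genes. These points share the same 4 arrays and are not independent. When the trend of all genes with length was subtracted, a step added after seeing the data, 33 members were lower and the median was -0.45. That trend is weaker than the one among the members, so its removal could shift them only a little. The part of gene length in the differences of the members was not tested.

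**Figure D4:**
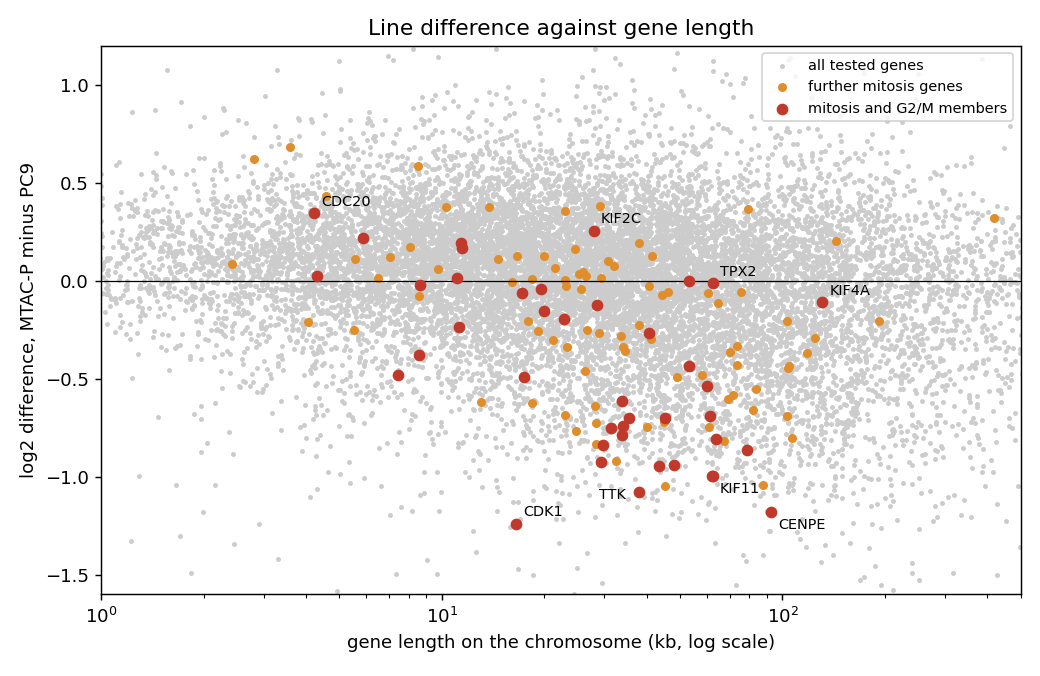
Log2 difference, MTAC-P minus PC9 (vertical axis), against the length of the gene on the chromosome in kb (horizontal axis, log scale) for the members (red), further mitosis genes (orange) and all tested genes (grey, with points beyond the axes not drawn). Red points up to 20 kb have a median of -0.041, and those over 20 and up to 50 kb a median of -0.74.

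Among measures of RNA quality and array controls, the poly-A spike-ins separated the lines most clearly, and the ACTB measure overlapped between them. ACTB gave a 3' minus 5' contrast, which grows as RNA is degraded or copied in part, of 1.51 and 1.75 (log2) on the MTAC-P arrays, against 1.71 and 2.49 on the PC9 arrays. For GAPDH it was -0.090 and -0.069 in MTAC-P, against -0.057 and 0.038 in PC9. The poly-A spike-in controls averaged 7.97 and 8.08 in MTAC-P, against 7.16 and 7.51 in PC9. The part of these in the lower values of the members was not tested. All 6 epithelial markers were well above the dim limit in both lines, between 10.28 and 14.42, with sums of 76.9 to 77.0 in MTAC-P and 77.6 on each PC9 array. Among them EPCAM and CDH1 had both MTAC-P arrays below both PC9 arrays, with differences of -0.49 and -0.54, and KRT8 and KRT18 had them above, with differences of 0.36 and 0.12. The 4 lung lineage markers, led by NKX2-1, lay between 4.59 and 5.22 on all arrays, near the dim limit. The 6 fibroblast markers were between 3.59 and 5.22, with sums of 24.7 to 25.2 in MTAC-P and 25.5 to 26.2 in PC9. The leukocyte marker PTPRC was between 3.94 and 4.04, below the dim limit, while CD68, a macrophage marker that other cells also express, was between 8.90 and 9.36. The 4 leukocyte markers measured, of which 3 were above the dim limit, summed to 22.5 on each MTAC-P array and to 21.6 and 22.7 on the PC9 arrays. The 4 endothelial markers were between 4.11 and 5.95, with sums of 17.7 to 19.6 in MTAC-P and 19.1 to 19.8 in PC9.

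Further mitosis genes, a list of 88 with 87 tested, also had more lower than higher means. In this list 55 genes (63.2%) had a lower mean in MTAC-P and 32 a higher one, against 46.2% lower over all tested genes. The median was -0.21, and 0 passed the adjusted limma test. At an unadjusted limma p under 0.05, 20 were lower and 3 higher, where 11.1% and 7.76% of all tested genes were. SKA2, which helps kinetochores follow shrinking microtubules, had values of 8.37 and 7.68 in MTAC-P, against 9.17 and 8.97 in PC9. KIF18A, a motor that limits chromosome oscillation, had values of 6.79 and 5.76 in MTAC-P, against 7.30 and 7.33 in PC9. CEP55, the abscission protein, had values of 9.03 and 8.37 in MTAC-P, against 9.70 and 9.54 in PC9. All MTAC-P values of these 3 were below all PC9 values, with differences of -1.05, -1.04 and -0.92. The largest differences in the other direction were 0.68 for the spindle protein PSRC1, 0.62 for the histone kinase HASPIN and 0.59 for TROAP, a spindle protein. The median of this list was -0.097 with all probe sets of each gene averaged and -0.093 without PC9 replicate 2.

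Genes of the G1/S transition were spread over both sides much as all tested genes were. Of 54 tested, 22 (40.7%) had a lower mean in MTAC-P, against 46.2% of all tested genes, with a median of 0.10. None passed the adjusted limma test (0 of 54). At an unadjusted limma p under 0.05, 5 were lower and 6 higher, where 11.1% and 7.76% of all tested genes were. ORC1, the largest subunit of the origin recognition complex, had values of 9.31 and 9.05 in MTAC-P, against 8.38 and 8.02 in PC9. The replication genes ORC1, GINS4 and CDT1 were higher in MTAC-P on both arrays, by 0.98 (SE 0.19), 0.62 (SE 0.19) and 0.59 (SE 0.20). RAD51AP1 and BRCA1, which act in homologous recombination, and cyclin E2, encoded by CCNE2, were lower on both arrays, with differences of -0.66, -0.64 and -0.66. The median of the G1/S list was 0.010 without PC9 replicate 2. The difference between the G1/S list and the members was not tested.

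**Figure D5:**
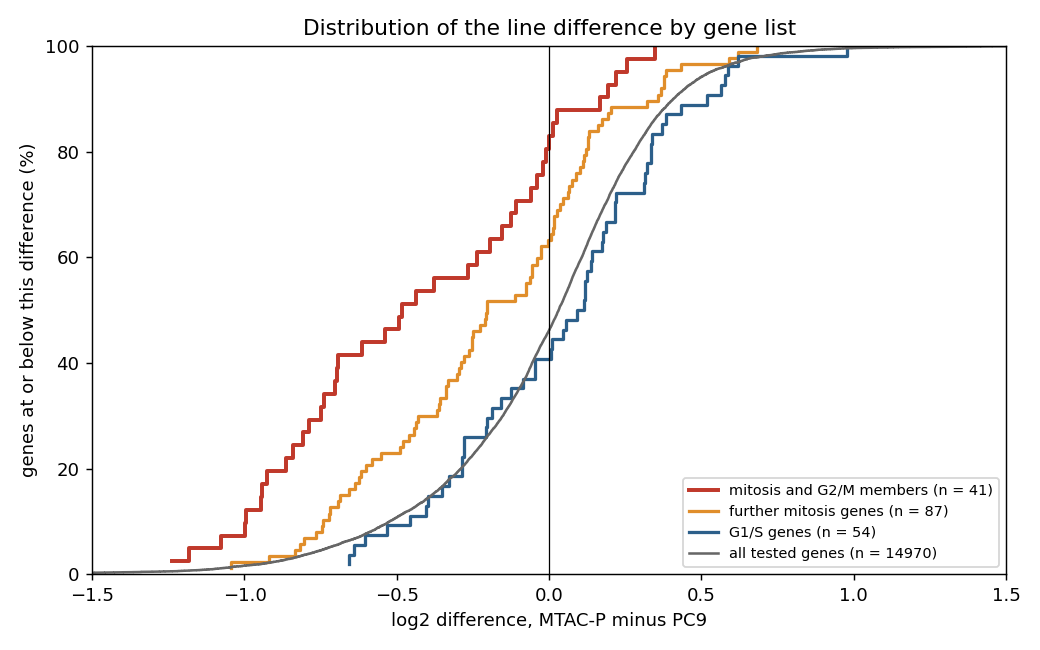
Share of genes in percent (vertical axis) at or below a given log2 difference, MTAC-P minus PC9 (horizontal axis), for the members (red, n = 41), further mitosis genes (orange, n = 87), G1/S genes (blue, n = 54) and all tested genes (grey, n = 14970). The curve of the members lies to the left, with a median of -0.48, against -0.21 for further mitosis genes, 0.10 for G1/S genes and 0.031 for all tested genes.

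Upstream brakes and activators of the G2/M step showed no common direction. Of 16 tested, 6 had lower and 10 higher means in MTAC-P, where 46.2% of all tested genes had a lower mean. The median of 0.15 turned to -0.14 without PC9 replicate 2, and 0 passed the adjusted limma test. At an unadjusted limma p under 0.05, 3 were lower and 3 higher, against 11.1% and 7.76% of all tested genes. The checkpoint kinase CHEK2 differed by 0.79 (SE 0.23), the 14-3-3 protein stratifin, encoded by SFN, by 0.55 (SE 0.16) and the CDK phosphatase CDC25A by 0.44 (SE 0.16). On the lower side, ARPP19, an inhibitor of the phosphatase that opposes CDK1, differed by -1.02 (SE 0.29), the CDK-binding phosphatase CDKN3 by -0.79 (SE 0.28) and the CDK inhibitor p27, encoded by CDKN1B, by -0.56 (SE 0.16). These 6 genes had non-overlapping arrays. Among 20 genes of the MuvB, MYBL2, E2F and NF-Y machinery that controls the module, 11 had lower and 9 higher means. The median was -0.086 (-0.18 without MTAC-P replicate 1 and -0.047 without PC9 replicate 1), and 0 passed the adjusted limma test. At an unadjusted limma p under 0.05, 5 were lower and 1 higher, again beside 11.1% and 7.76% of all tested genes. E2F8, a repressor of E2F targets, had values of 8.54 and 8.37 in MTAC-P, against 9.20 and 9.52 in PC9, and it did not overlap, with a difference of -0.90 (SE 0.18, limma adjusted p = 0.112). The retinoblastoma gene RB1 differed by -0.71 and the NF-Y subunit NFYB by -0.68, while TFDP2, the dimer partner of E2F factors, E2F4, the E2F of the DREAM complex, and its MuvB subunit LIN37 differed by 0.39, 0.35 and 0.30. All 6 had non-overlapping arrays.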

How the data were processed

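Total RNA of 4 samples was measured on one-colour arrays, 2 of MTAC-P and 2 of PC9, grouped by sample title. The authors deposited log2 expression values, 1 per probe set and array, for 49386 probe sets. That the scale is log2 was judged from their range, 3.32 to 14.63. Per the labels' protocols an Agilent one-colour kit with Cy3 was used, and the submitters' processing notes name Agilent Feature Extraction 10.7, while the probe-set names are of Affymetrix type. How these relate, the background correction and the normalization are not given in the sources used here. Array medians were 4.85 to 4.88, so no further scaling was applied.

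Probe sets with 1 symbol (45253) were used, named through GEO's platform annotation updated to GRCh38.p14, and 93 control probe sets, 1327 with several symbols and 2713 unnamed ones were not. Each of 18239 genes took its probe set with the highest mean, and 3269 whose mean lay below the 25th percentile over probe sets were left out. MTAC-P and PC9 were compared over 14970 genes in R 4.3.3 with lmFit and eBayes of limma 3.58.1 (2-sided, Benjamini-Hochberg over all tested genes, threshold 0.05). Spreads are limma's moderated standard errors (SE), intervals are 95%, and the number of arrays limits the precision. The step was tested on simulated data, where recovery was required only of changes larger than the difference of any member. The members, lists, motifs and naming rule were chosen with earlier results of these data known. Values on every array are given for 12 listed members and for each other member with non-overlapping arrays and a difference of at least 0.5, 28 in all, and the other 13 are given by their difference; in each other list the 3 largest non-overlapping differences of each direction are named. Gene lengths are spans in the reference gene table. Plots and promoter searches used Python 3.11.15 and matplotlib 3.10.9.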

Additional observations from a re-analysis of the deposited data

How the results depend on the processing

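The 2 arrays per line limit the precision, and the values of CENPE in MTAC-P lie close to the dim limit. The count of members lower in MTAC-P ranged from 29 to 34 when 1 array was left out and from 31 to 35 under the other settings, among them 39 members with probe sets ending in _s_at or _x_at left out (31 lower, chosen after seeing the data). The members' median ranged from -0.62 to -0.32 when 1 array was left out and from -0.52 to -0.45 otherwise. The count of members past the threshold, 0 in the reported fit and in each fit without 1 array, was 18 with the replicate number as a block and 1 with limma's variance trend. The labels do not say that equal numbers mark a shared culture or day. Over all genes the duplicate differences of the lines correlated at 0.28 (0.34 over the members), which is a hint from the data and not the design. All genes past the threshold, 3 in the reported fit, numbered 2079 with the replicate block, 77 with a variance trend, 124 at an adjusted p threshold of 0.10, 1 with the filter at the 50th percentile, with a pseudocount of 16 or without _s_at and _x_at probe sets, 0 in the unmoderated test, with the mean of all probe sets or with the mean of those above the dim limit, and from 0 to 68 when 1 array was left out (68 without PC9 replicate 1, 0 without either MTAC-P array).

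The median of the further mitosis genes was -0.097 with either mean of probe sets and -0.26 to -0.093 when 1 array was left out, that of the G1/S genes was 0.010 to 0.094 when 1 array was left out, and that of the brakes and activators was 0.22 without _s_at and _x_at probe sets, 0.072 with the length trend removed and -0.14 to 0.13 when 1 array was left out. Signs of members near zero turned: CCNB1 to -0.00022 with median centring and to -0.050 with the length trend removed; CDC25C to -0.014 with median centring, to -0.075 with either mean of probe sets and to -1.3e-05 with the pseudocount; CDCA8 to 0.13 and KIF4A to 0.091 with either mean of probe sets, and KIF4A to 0.022 with the length trend removed. PRC1 turned to 0.010 with either mean of probe sets and to 0.029 without _s_at and _x_at probe sets, KIF20A to 0.0091 with centring on the 75th percentile, and TPX2 to 0.019 with that centring and to 0.079 with the length trend removed. UBE2C turned to -0.068 with either mean of probe sets, to -0.099 without _s_at and _x_at probe sets and to -0.058 with the length trend removed. Leaving out 1 array turned the sign of 12 members, with ranges of -0.12 to 0.15 for CCNB1, -0.46 to 0.16 for CCNB2, -0.11 to 0.11 for CDC25C, -0.23 to 0.14 for FOXM1, -0.50 to 0.11 for AURKA, -0.0054 to 0.34 for PLK1, -0.32 to 0.20 for CDCA8, -0.59 to 0.052 for BUB1, -0.16 to 0.21 for UBE2C, -0.19 to 0.18 for TPX2, -0.32 to 0.10 for KIF4A and -0.076 to 0.038 for KIF20A. The cause of these moves was not tested. The sign of 28 of the 41 members turned under none of the settings run.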

Other observations

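Among the members, a higher mean level and a higher GC content of the promoter tended to go with a higher signed difference, MTAC-P minus PC9. Spearman's rho between the log2 difference and the mean level was 0.32 over the 41 members and 0.30 over 87 further mitosis genes. It was -0.0096 over 54 G1/S genes and -0.015 over all tested genes. Spearman's rho between the difference and the GC content of the promoter windows was 0.38 over the 35 members with a window and a value, and 0.068 over 12036 tested genes with a window. The median GC content was 61.0% for these members and 63.7% for the tested genes. The points share the same 4 arrays, and these values are descriptions without a test.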
